A study of Homo sapiens with 6 samples.

Results

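Chemokines, interleukins and their receptors were compared between PC9, a cell line from a human non-small cell lung carcinoma, and the drug-tolerant persister cells (PSPC9) that remained after exposure to erlotinib. Members were set by a rule on gene symbols, chosen with earlier results of these data known. They were the gene symbols in the count file that consist of CXCL, CCL, CX3CL, CXCR, CCR, ACKR or IL and a number with any suffix, except IL32. This gave 154 of 36459 symbols. Of these, 83 encode ligands (receptor antagonists included), 60 encode receptors, and 11 are other genes, namely 8 pseudogenes, the soluble inhibitors IL18BP and IL22RA2, and the enzyme IL4I1.

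RNA was sequenced from 3 PC9 libraries, made from 3 separate cultures of untreated parental cells, and from 3 PSPC9 libraries, for which cells of 9 independent cultures were pooled. PSPC9 cells were harvested after 6 days in 15 µM erlotinib, a small molecule that inhibits the kinase of the epidermal growth factor receptor (EGFR). Both conditions were grown in RPMI medium with 10% fetal bovine serum. The comparison asked which members differ in transcript level between the persister and the parental state of a single line.

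Chemokines are small secreted proteins that steer migrating cells by binding G protein-coupled receptors, whereas atypical chemokine receptors (ACKR) bind the same ligands without coupling to G proteins. Interleukins act through receptors built of a private chain and a chain shared by a whole family, such as gp130 (the product of IL6ST) for IL6 and IL11, or the common gamma chain (IL2RG) for IL2, IL4, IL15 and IL21. Most signal through JAK kinases and STAT transcription factors, while the IL1 family signals through MyD88 and IRAK proteins, the IL17 family through TRAF3IP2, and both through TRAF6 to NF-kappa B. Epithelial cells, lung cancer cells among them, express many of these receptors and secrete several of the ligands themselves.

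The libraries held between 29476725 and 34893782 gene counts. Levels are given as CPM, counts scaled to the size of the library after TMM normalization, and changes as log2 fold changes of PSPC9 over PC9 with their standard error (SE) and the Benjamini-Hochberg adjusted p of edgeR's quasi-likelihood test over all genes. A gene was called changed at an adjusted p under 0.01. Epithelial markers summed to between 7519 and 8051 CPM in PC9 and between 5936 and 6298 CPM in PSPC9. Of these 6 markers KRT8, KRT18, KRT19 and EPCAM fell, whereas CDH1 and KRT7 rose by 0.60 and 0.46 on the log2 scale. All 7 genes read as output of EGFR and ERK signalling fell, DUSP6 by 3.68 on the log2 scale. CD3E, CD2 and NKG7, defining markers of T and NK cells, had 0 counts in every library, and PTPRC, the pan-leukocyte marker, did not exceed 0.356 CPM. The whole list of 10 leukocyte markers still summed to 2.82 to 3.24 CPM in PC9 and 15.3 to 16.3 CPM in PSPC9, and CSF1R and ITGAM were the markers of it that rose. Fibroblast markers summed to 10.4 to 11.0 CPM in PC9 and 27.4 to 30.8 CPM in PSPC9, mostly COL1A1, and endothelial markers to 8.05 to 8.82 and 3.25 to 3.80 CPM. In bulk RNA, fewer cells with a transcript and less of it per cell cannot be told apart.

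Of the 154 members, 53 had enough counts to be tested, and 30 of these were called changed. Of 19 tested ligands, 4 rose (CXCL16, IL11, IL6 and IL34), 4 fell (IL1B, IL1RN, IL36RN and CXCL17) and 11 were not called. Of 32 tested receptors, 5 rose and 15 fell. The same fit called 28.7% of all 14626 tested genes higher and 28.1% lower, so a change by itself does not set a member apart. For ligands the shares were 21.1% in either direction, and for receptors 15.6% higher and 46.9% lower. The median log2 fold change was 0.30 over tested ligands and -0.40 over tested receptors, beside -0.0061 over all tested genes. Members that could be tested only because one condition expressed them are part of these counts, and the difference between ligands and receptors was not tested.

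**Figure D1:**
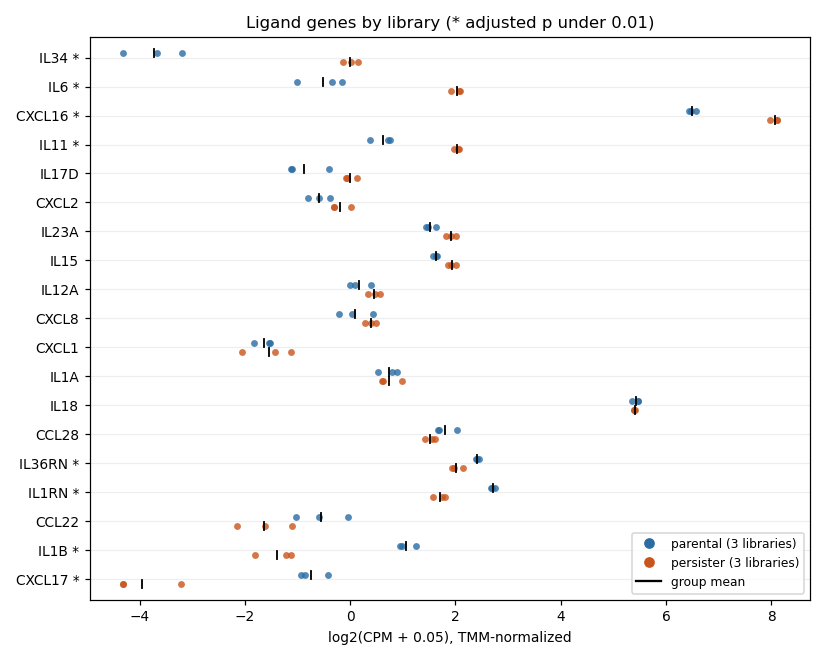
Level of each tested ligand in every library, as log2 of CPM plus 0.05 on the horizontal axis. Points are the 3 PC9 and the 3 PSPC9 libraries, bars are group means, and an asterisk marks an adjusted p under 0.01. The points of IL34, IL6, CXCL16 and IL11 lie to the right in PSPC9, those of CXCL17, IL1B, IL1RN and IL36RN to the left.

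**Figure D2:**
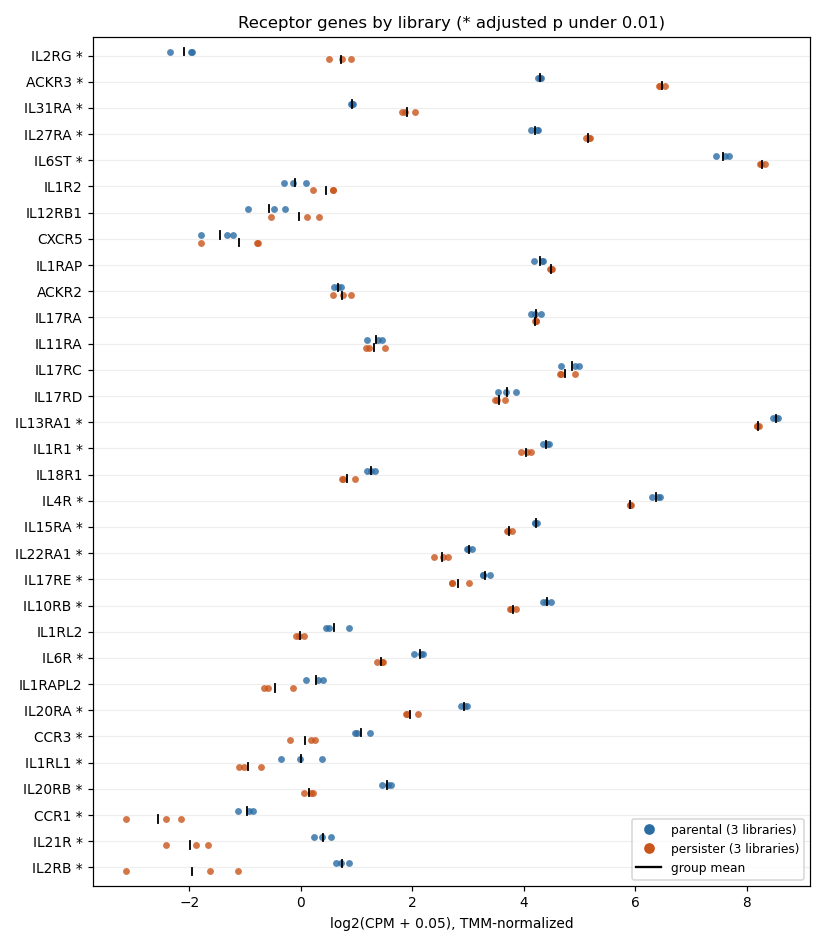
Level of each tested receptor in every library, drawn as for the ligands and ordered by log2 fold change from highest to lowest. IL2RG, ACKR3, IL31RA, IL27RA and IL6ST carry the asterisk at the top, and the 15 lower receptors fill most of the bottom rows.

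Levels of different genes were compared in TPM, which divides the counts of each transcript by its length and scales all to the same sum per library. In PC9 the most abundant member was IL13RA1 at 177 ± 3.57 TPM (SD, n = 3), before CXCL16 at 107 ± 7.49, IL18 at 77.9 ± 2.49, IL6ST at 54.6 ± 0.725 and IL4R at 51.7 ± 1.59. In PSPC9 the order was CXCL16 at 343 ± 13.5 TPM, IL13RA1 at 148 ± 3.22, ACKR3 at 119 ± 8.54, IL6ST at 94.4 ± 3.17 and IL18 at 79.6 ± 1.47. ACKR3 thus moved from 26.3 ± 0.299 TPM, a level that did not differ from that of IL17RC (24.9 ± 2.93) beyond their spread, to the third place. IL6 reached 8.27 ± 0.466 and IL11 4.40 ± 0.432 TPM in PSPC9. Among the 19 tested ligands, ranked from the most abundant, IL6 stood at rank 12 in PC9 and 3 in PSPC9, and IL11 at rank 9 and 5.

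Several ligands are textbook targets of NF-kappa B and AP-1, and they did not move together here. The bases upstream of the RefSeq start (build GRCh38.p14) are shown for IL6 and IL11, which rose, for IL1B, which fell, and for 3 neighbouring chemokine genes that were not called. Capitals mark the letters GGNNTTTCC, a core of NF-kappa B sites, or TGANTCA, the AP-1 core, searched on both strands, which do not overlap each other in these stretches. Each sequence runs 5′ to 3′ on the strand of its gene and stops before the first exon in the GENCODE annotation. The stretch of IL6 lies in an intron of a longer IL6 transcript.
IL6, chr7:22727050-22727146, plus strand: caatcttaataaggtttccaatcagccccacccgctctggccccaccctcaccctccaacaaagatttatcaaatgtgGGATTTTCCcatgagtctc
IL11, chr19:55370464-55370613, minus strand: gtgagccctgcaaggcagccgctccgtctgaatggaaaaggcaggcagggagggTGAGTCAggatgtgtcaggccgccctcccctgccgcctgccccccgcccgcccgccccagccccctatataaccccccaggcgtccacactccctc
IL1B, chr2:112836817-112836929, minus strand: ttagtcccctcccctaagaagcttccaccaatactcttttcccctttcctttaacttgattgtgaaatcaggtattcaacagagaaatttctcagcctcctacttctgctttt
CXCL8, chr4:73740419-73740518, plus strand: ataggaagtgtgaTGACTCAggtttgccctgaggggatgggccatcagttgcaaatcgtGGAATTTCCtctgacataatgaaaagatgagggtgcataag
CXCL1, chr4:73869243-73869392, plus strand: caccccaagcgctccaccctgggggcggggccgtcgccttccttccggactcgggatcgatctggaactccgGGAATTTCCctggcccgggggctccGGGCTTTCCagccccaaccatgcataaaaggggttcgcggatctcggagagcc
CXCL2, chr4:74099197-74099345, minus strand: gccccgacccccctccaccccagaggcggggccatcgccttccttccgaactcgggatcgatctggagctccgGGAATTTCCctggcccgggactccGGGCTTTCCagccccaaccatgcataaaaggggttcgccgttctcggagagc
The NF-kappa B letters begin 72 bases before the start of IL6, 91 before that of CXCL8, 78 and 53 before that of CXCL1, and 77 and 53 before that of CXCL2. The AP-1 letters begin 96 bases before the start of IL11 and 137 before that of CXCL8. Neither motif is in the stretch shown for IL1B. Over windows from 250 bases before to 50 after the start, 6.26% of 35116 RefSeq promoters held the NF-kappa B letters and 7.71% the AP-1 letters. RefSeq promoters were matched for 43 of the 53 tested members. Of 9 uncalled ligands with a promoter, 4 held the NF-kappa B letters (CXCL1, CXCL2, CXCL8 and IL17D), against 1 of 2 higher ligands (IL6) and 1 of 4 lower ones (IL1RN). Among receptors they were in 1 of 3 higher (IL27RA), 1 of 14 lower (IL4R) and 3 of 10 uncalled genes. The AP-1 letters were in 1 of 2 higher ligands (IL11), 2 of 4 lower ones (CXCL17 and IL1RN) and 4 of 9 uncalled ones. For receptors this was 0 of 3 higher, 4 of 14 lower (IL15RA, IL1RL1, IL22RA1 and IL6R) and 0 of 10 uncalled genes. These matches describe letters only.

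Among chemokine ligands, CXCL16 was the only one of 7 tested genes that rose, and CXCL17 the only one that fell. CXCL16, on chromosome 17 (4733533 to 4739928, GRCh38, minus strand), encodes a membrane-anchored chemokine that binds CXCR6 and can be shed. It was at 86.1, 94.9 and 88.4 CPM in PC9 and 252, 277 and 275 CPM in PSPC9. The lowest PSPC9 library was well above the highest PC9 library, and the log2 fold change was 1.58 (SE 0.051, adjusted p = 8.53e-10), a fold change of 2.98. Its receptor CXCR6 was not tested, with 4 to 9 counts in any library (a gene singled out after its values were seen). MED11 and ZMYND15, on the opposite strand, share 76 and 96 of the 2793 annotated exon bases of CXCL16, and strand use in the counting was not given in the sources used here. MED11 had a log2 fold change of -0.28 and ZMYND15 of 0.47, and their part in the CXCL16 counts was not tested.

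The neutrophil-attracting chemokines CXCL8, CXCL1 and CXCL2, which share the receptor CXCR2, were not called. CXCL8 was at 0.814, 1.29 and 0.980 CPM in PC9 and 1.16, 1.27 and 1.35 CPM in PSPC9, and the groups overlapped. Its log2 fold change was 0.30 (95% interval -0.19 to 0.78, adjusted p = 0.250). CXCL1 had a log2 fold change of 0.16 (95% interval -0.68 to 1.00) and CXCL2 of 0.42 (-0.12 to 0.95), at less than 1 CPM in every library. All 3 intervals include 0. The upstream sequences of these 3 genes carry NF-kappa B letters above, as does that of IL6, which rose. The genes lie in the CXC cluster on chromosome 4 (73740519 to 74099196), where CXCL6, CXCL5, CXCL3 and the pseudogene CXCL1P1 had too few counts to be tested.

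CXCL17, a chemokine of mucosal surfaces on chromosome 19 (42428278 to 42442946), was nearly lost in PSPC9. It had 57 counts over the 3 PC9 libraries and 2 over the 3 PSPC9 libraries, at 0.697, 0.470 and 0.505 CPM in PC9 and 0, 0 and 0.0585 CPM in PSPC9. The ratio of PC9 over PSPC9 was 26.5, with an exact 95% counting interval of 7.0 to 224, and the fitted log2 fold change was -4.50 (SE 0.66, adjusted p = 0.000111). Both PSPC9 counts were in replicate 3, and the fitted value ranged from -7.19 without that library to -3.99 without PSPC9 replicate 2, with the call kept. CCL28, a mucosal chemokine that binds CCR10 and CCR3, was at 4.04, 3.14 and 3.18 CPM in PC9 and 2.88, 2.99 and 2.63 CPM in PSPC9. It was not called, with a log2 fold change of -0.29 (95% interval -0.60 to 0.019). CCL22, a ligand of CCR4, was lower in every PSPC9 library than in every PC9 library, but at -1.19 (95% interval -2.07 to -0.32) and an adjusted p of 0.0200 it was not called.

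Among chemokine receptors, the atypical receptor ACKR3 rose while CCR1 and CCR3 fell. ACKR3, on chromosome 2 (236567787 to 236582354), binds CXCL12 and CXCL11 and recruits arrestins in place of G proteins. It was at 19.6, 19.7 and 19.1 CPM in PC9 and 86.1, 92.6 and 86.8 CPM in PSPC9. The groups were far apart relative to their spread, and the log2 fold change was 2.18 (SE 0.048, adjusted p = 6.40e-11), a fold change of 4.54. CXCL12 had 0 counts in all 6 libraries, which allows up to 0.0860 CPM in the deepest and 0.102 CPM in the shallowest library (counting error only), and CXCL11 had at most 4 counts in any library (both singled out after their values were seen). ACKR2, which clears inflammatory CC chemokines, was at 1.45, 1.53 and 1.60 CPM in PC9 and 1.44, 1.81 and 1.64 CPM in PSPC9 and was not called, at 0.10 (95% interval -0.28 to 0.47).

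CCR3, a receptor for eotaxins and CCL5, was at 1.92, 2.32 and 1.96 CPM in PC9 and 0.822, 1.14 and 1.08 CPM in PSPC9. PSPC9 over PC9 gave a log2 fold change of -1.01 (SE 0.19, adjusted p = 0.000653). CCR1, which shares CCL3 and CCL5 as ligands, was at 0.407, 0.499 and 0.475 CPM in PC9 and 0.137, 0.0635 and 0.176 CPM in PSPC9. This is a log2 fold change of -1.83 (SE 0.40, adjusted p = 0.00193). Both genes fell with no overlap between groups. Their gene bodies overlap on opposite strands of chromosome 3, with 0 exon bases in common in the annotation. The call for CCR1 was lost without PSPC9 replicate 2 (adjusted p = 0.0110) and with DESeq2 (adjusted p = 0.0140). CXCR5, a receptor for CXCL13, was not called, at 0.44 (95% interval -0.39 to 1.28), and BCL9L on the opposite strand shares 91.1% of its exon bases. CXCR4, the G protein-coupled receptor of CXCL12, was not tested. It had 10, 11 and 16 counts in PC9 and 3, 1 and 9 in PSPC9.

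In the gp130 family the ligands IL6 and IL11 and the shared chain IL6ST rose, while the IL6-binding chain IL6R fell. IL6, the founding ligand of the family on chromosome 7 (22725884 to 22732002), was at 0.843, 0.735 and 0.446 CPM in PC9 and 3.73, 4.13 and 4.18 CPM in PSPC9. Every PSPC9 library exceeded every PC9 library several times over, and the log2 fold change was 2.57 (SE 0.19, adjusted p = 6.63e-07), a fold change of 5.93. STEAP1B, which shares 46 exon bases with IL6 on the opposite strand, had a log2 fold change of 0.36 on a mean of 11.3 counts. IL11, on chromosome 19 (55364382 to 55370463), was at 1.60, 1.65 and 1.25 CPM in PC9 and 4.11, 4.16 and 3.86 CPM in PSPC9. Its groups also stood apart, and the log2 fold change was 1.43 (SE 0.14, adjusted p = 5.50e-06), a fold change of 2.69.

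IL6ST, on chromosome 5 (55935095 to 55995022), encodes gp130, the signal-transducing chain of the family. It was at 205, 175 and 194 CPM in PC9 and 319, 303 and 299.5 CPM in PSPC9. The groups did not overlap, and the log2 fold change was 0.68 (SE 0.055, adjusted p = 1.05e-06). IL6R encodes the chain that binds IL6 and hands it to gp130. IL6R was at 4.04, 4.52 and 4.43 CPM in PC9 and 2.71, 2.51 and 2.72 CPM in PSPC9. It moved opposite to its ligand, and the log2 fold change was -0.71 (SE 0.11, adjusted p = 0.000229). The IL11-binding chain IL11RA was at 2.24, 2.56 and 2.70 CPM in PC9 and 2.81, 2.29 and 2.19 CPM in PSPC9, with overlapping groups and a log2 fold change of -0.045 (95% interval -0.38 to 0.29).

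Both remaining members of the gp130 receptor group rose. IL27RA, which pairs with gp130 to bind IL27, was at 17.3, 18.9 and 19.0 CPM in PC9 and 36.2, 34.6 and 35.8 CPM in PSPC9. Its log2 fold change was 0.95 (SE 0.053, adjusted p = 6.24e-08). IL31RA, a gp130-like chain that pairs with OSMR to bind IL31, was at 1.83, 1.82 and 1.87 CPM in PC9 and 4.08, 3.59 and 3.45 CPM in PSPC9. In log2 terms the change came to 1.00 (SE 0.13, adjusted p = 4.41e-05). Neither pair of groups overlapped. OSMR, the partner of IL31RA, was not called, at -0.14 on the log2 scale.

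Genes of the family that the symbol rule leaves out moved in both directions. In a grouping by receptor family made after values were seen, 13 ligand and receptor genes of the gp130 family were tested, IL31RA included, and 7 rose and 3 fell, with a median log2 fold change of 0.32. These are 53.8% and 23.1%, beside 28.7% higher and 28.1% lower over all tested genes. LIFR, the receptor of LIF, rose by 0.32 on the log2 scale, and LIF itself was not called, at 0.18. CTF1 (cardiotrophin 1) and CLCF1 (cardiotrophin-like cytokine), further ligands of gp130 complexes, fell by 1.07 and 0.38 on the log2 scale, whereas CNTF, a neurotrophic ligand, rose by 1.61. SOCS3, the feedback inhibitor that binds gp130 and is itself induced by STAT3, was at 32.1, 39.7 and 36.7 CPM in PC9 and 9.28, 8.90 and 8.52 CPM in PSPC9. It fell by 2.02 on the log2 scale, in the opposite direction to IL6, IL11 and IL6ST.

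**Figure D3:**
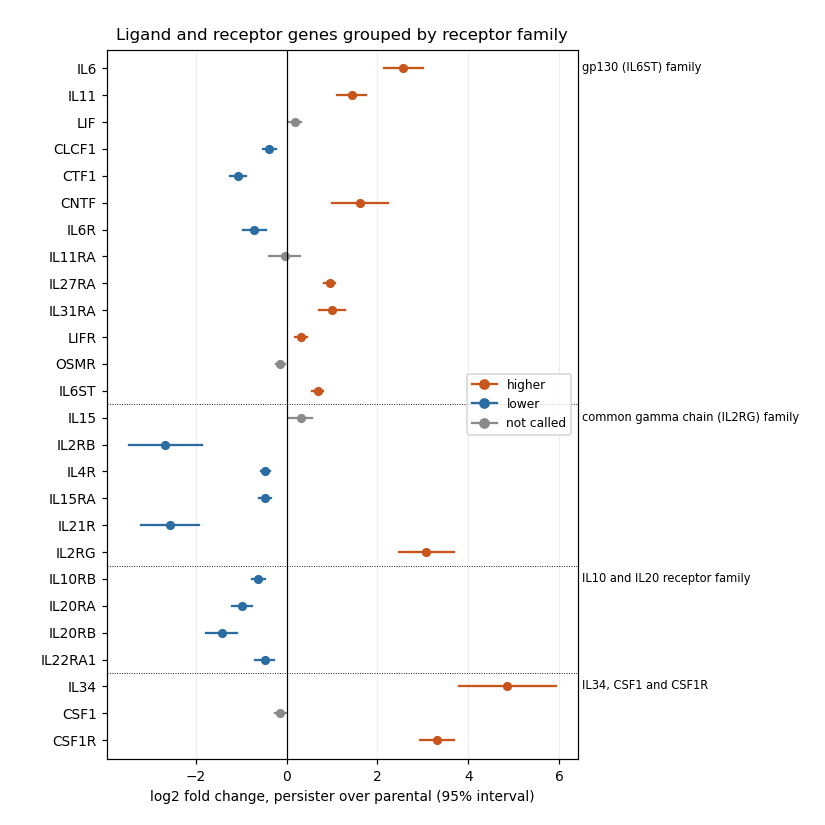
Log2 fold change of PSPC9 over PC9 (horizontal axis) for ligand and receptor genes grouped by receptor family. Points are estimates, lines are 95% intervals, and colours give the call. In the gp130 group 7 of 13 genes are higher and 3 lower, in the common gamma group 1 of 6 is higher and 4 lower, and all 4 genes of the IL10 and IL20 receptor group are lower. Of all tested genes, 28.7% were called higher and 28.1% lower.

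IL34 rose from almost no counts. IL34, on chromosome 16 (70579895 to 70660682), encodes a cytokine that shares the receptor CSF1R with CSF1 and is known for keeping macrophages and microglia alive. It had 1, 2 and 0 counts in PC9 and 28, 27 and 36 in PSPC9. The ratio of PSPC9 over PC9 was 32.7, with an exact 95% counting interval of 10.8 to 161, and the fitted log2 fold change was 4.86 (SE 0.48, adjusted p = 5.83e-06). CSF1R was at 0.465, 0.411 and 0.505 CPM in PC9 and 4.14, 4.57 and 5.03 CPM in PSPC9 and rose by 3.31 on the log2 scale, whereas the other ligand, CSF1, was not called, at -0.14. ITGAM, a myeloid integrin, rose as well. Other markers of the leukocyte list went the other way. PTPRC reached no more than 0.356 CPM and CD14 no more than 0.617 CPM. Both were lower in every PSPC9 library than in every PC9 library but not called, at -1.15 and -1.14 on the log2 scale. LYZ, not tested, had 8, 4 and 9 counts in PC9 and 0, 0 and 1 in PSPC9. SPI1, the myeloid transcription factor, had no count in 5 of 6 libraries. Whether cells of another type had a part in these values was not tested.

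In the IL1 family IL1B and its antagonist IL1RN fell while IL1A and IL18 were not called. IL1B, a secreted activator of IL1 receptors, was at 2.32, 1.88 and 1.93 CPM in PC9 and 0.411, 0.381 and 0.234 CPM in PSPC9. The groups did not overlap, and the log2 fold change was -2.58 (SE 0.25, adjusted p = 3.93e-06), which makes PC9 5.99 times as high. IL1A, an alarmin that binds the same receptor, was at 1.69, 1.79 and 1.40 CPM in PC9 and 1.92, 1.49 and 1.46 CPM in PSPC9. Its groups overlapped and its log2 fold change was -0.0062 (95% interval -0.41 to 0.40). IL18, an abundant inflammasome product, was at 43.9, 41.0 and 44.2 CPM in PC9 and 42.1, 42.0 and 42.6 CPM in PSPC9. Its change of -0.027 had a narrow 95% interval of -0.13 to 0.074.

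Both tested receptor antagonists fell, although their call did not hold equally well. IL1RN, which blocks the IL1 receptor, was at 6.36, 6.64 and 6.39 CPM in PC9 and 3.43, 3.30 and 2.93 CPM in PSPC9. The change was -1.01 on the log2 scale (SE 0.10, adjusted p = 6.06e-06). IL36RN, which blocks the IL36 receptor, was at 5.26, 5.17 and 5.41 CPM in PC9 and 4.35, 3.75 and 3.89 CPM in PSPC9. The groups did not overlap, and the log2 fold change was -0.40 (SE 0.10, adjusted p = 0.00438). That call was lost with DESeq2 (adjusted p = 0.0263) and without PC9 replicate 3, PSPC9 replicate 2 or PSPC9 replicate 3 (adjusted p = 0.0178, 0.0207 and 0.0197). These genes lie with IL1A and IL1B in 1 cluster on chromosome 2 (112773925 to 113134016), in which IL37, IL36G, IL36A, IL36B and IL1F10 were not tested and had at most 5 counts in any library.

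A second cluster on chromosome 2 (101991960 to 102452565) holds 6 receptors of the family. IL18RAP was not tested, and of the others 2 were called lower and none higher. Over all tested genes 28.1% were called lower and 28.7% higher. IL1R1, the signalling receptor of IL1, was at 21.7, 20.3 and 21.2 CPM in PC9 and 17.5, 16.6 and 15.4 CPM in PSPC9. PSPC9 over PC9 gave a log2 fold change of -0.36 (SE 0.063, adjusted p = 0.000450). IL1R2, a decoy that binds IL1 without signalling, was at 1.02, 0.764 and 0.861 CPM in PC9 and 1.44, 1.11 and 1.43 CPM in PSPC9. It was not called, at 0.59 (95% interval 0.12 to 1.06, adjusted p = 0.0287). The decoy and the signalling receptor had estimates of opposite sign, of which only the fall of IL1R1 passed the limit.

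IL1RL1, the receptor of IL33, was at 0.726, 0.940 and 1.25 CPM in PC9 and 0.411, 0.445 and 0.556 CPM in PSPC9. This is a log2 fold change of -1.03 (SE 0.28, adjusted p = 0.00771). The call was lost in 7 alternatives, among them limma voom (adjusted p = 0.0104) and leaving out any library but PC9 replicate 1, with adjusted p up to 0.0419. IL1RL2, the IL36 receptor, was at 1.31, 1.76 and 1.37 CPM in PC9 and 0.925, 0.890 and 0.995 CPM in PSPC9 and was not called, at -0.65 (95% interval -1.10 to -0.21, adjusted p = 0.0137). IL18R1, the IL18-binding chain, was at 2.35, 2.23 and 2.47 CPM in PC9 and 1.61, 1.91 and 1.64 CPM in PSPC9. It was not called, at -0.45 (95% interval -0.78 to -0.12, adjusted p = 0.0194). IL18R1 and IL1RL1 share 95 exon bases on the same strand, and counts may be split between them. The partner chain IL18RAP had at most 1 count in any library.

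IL1RAP, on chromosome 3, encodes the accessory chain that IL1, IL33 and IL36 receptors share. It was at 19.96, 18.0 and 20.3 CPM in PC9 and 22.4, 22.0 and 22.5 CPM in PSPC9 and was not called, at 0.20 (95% interval 0.067 to 0.33, adjusted p = 0.0118). IL1RAPL2, a related protein of the nervous system, had a log2 fold change of -0.75 (95% interval -1.27 to -0.23) and was not called. IL18BP, a secreted inhibitor that neutralizes IL18, was at 5.61, 5.05 and 5.76 CPM in PC9 and 8.67, 7.31 and 8.05 CPM in PSPC9. It rose, and the log2 fold change was 0.55 (SE 0.10, adjusted p = 0.000470). NUMA1, on the opposite strand, shares 1031 of the 5851 exon bases of IL18BP and had a mean of 13295 counts and a log2 fold change of 0.065. Its part in the IL18BP counts was not tested.

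**Figure D4:**
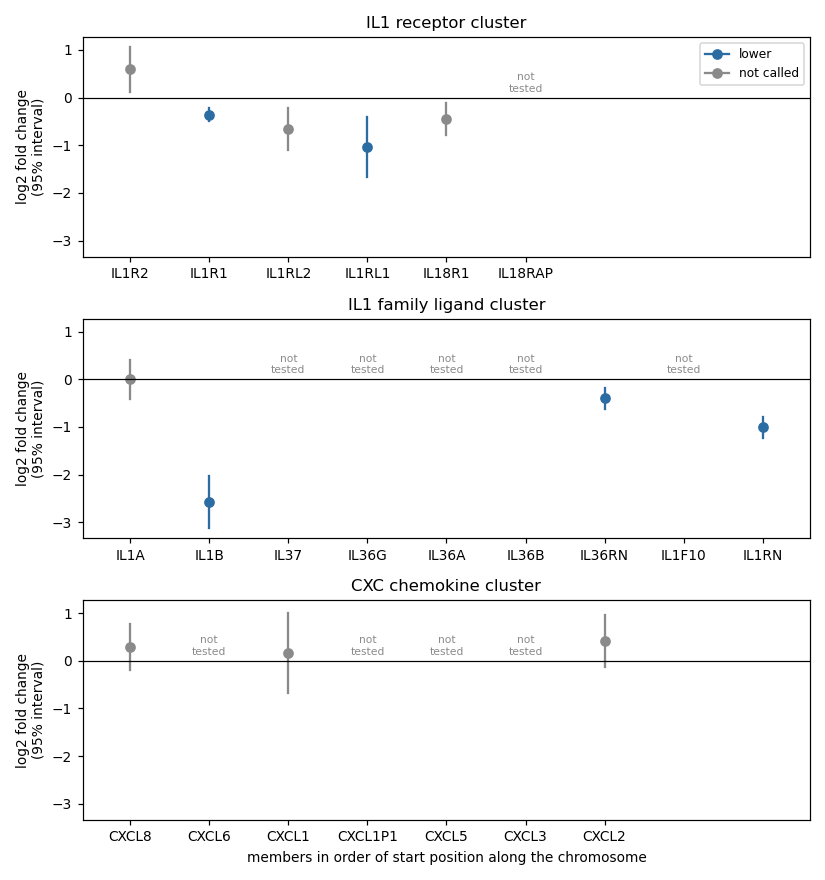
Log2 fold change of PSPC9 over PC9 (vertical axis, 95% intervals) for members of 3 gene clusters, in order of their start along the chromosome and not to distance. In the IL1 receptor cluster IL1R1 and IL1RL1 are lower, in the IL1 family ligand cluster IL1B, IL36RN and IL1RN are lower beside IL1A at -0.0062, and in the CXC cluster the intervals of CXCL8, CXCL1 and CXCL2 all cross 0.

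The common gamma chain and its partner chains moved in opposite directions. IL2RG, on the X chromosome, encodes the chain shared by the receptors of IL2, IL4, IL7, IL9, IL15 and IL21. It was at 0.145, 0.206 and 0.208 CPM in PC9 and 1.61, 1.81 and 1.38 CPM in PSPC9. The groups did not overlap, and the log2 fold change was 3.07 (SE 0.27, adjusted p = 2.43e-06), a fold change of 8.42. IL2RB, the chain that IL2 and IL15 receptors share, was at 1.77, 1.5 and 1.60 CPM in PC9 and 0.274, 0.0635 and 0.410 CPM in PSPC9. Its log2 fold change was -2.67 (SE 0.36, adjusted p = 6.73e-05). IL21R, the private chain for IL21, was at 1.13, 1.41 and 1.25 CPM in PC9 and 0.137, 0.222 and 0.263 CPM in PSPC9. In log2 terms the change came to -2.56 (SE 0.29, adjusted p = 1.46e-05).

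Partner chains with higher levels also fell. IL15RA, which presents IL15, was at 18.4, 18.8 and 18.3 CPM in PC9 and 12.9, 13.8 and 13.1 CPM in PSPC9. The change was -0.48 on the log2 scale (SE 0.058, adjusted p = 2.69e-05). IL4R, the chain that binds IL4, was at 78.3, 86.3 and 84.6 CPM in PC9 and 59.5, 59.5 and 60.5 CPM in PSPC9. PSPC9 over PC9 gave a log2 fold change of -0.47 (SE 0.046, adjusted p = 4.60e-06). IL15, the only tested cytokine of the family, was at 2.93, 3.08 and 3.06 CPM in PC9 and 3.70, 4.0 and 3.57 CPM in PSPC9 and was not called, at 0.31 (95% interval 0.063 to 0.56, adjusted p = 0.0296). JAK3, the kinase that docks on the common gamma chain, was at 22.7, 25.6 and 23.0 CPM in PC9 and 8.98, 9.37 and 8.46 CPM in PSPC9 and fell by 1.41 on the log2 scale. Among the ligand and receptor genes of this group, put together after values were seen, 1 of 6 tested genes rose and 4 fell, with a median of -0.47 on the log2 scale. The shares over all tested genes were 28.7% higher and 28.1% lower.

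IL13RA1, on the X chromosome, pairs with IL4R in epithelial cells to form the receptor for IL4 and IL13. It was the most abundant receptor per length in both conditions. Its level was 374, 356 and 369 CPM in PC9 and 291, 298 and 292 CPM in PSPC9. It fell as IL4R did, and the log2 fold change was -0.32 (SE 0.035, adjusted p = 1.11e-05). STAT6, the transcription factor that this receptor activates, fell by 0.65 on the log2 scale. IL4 and IL13 themselves had at most 1 count in any library (singled out after their values were seen).

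All 4 tested receptors of the IL10 and IL20 group, also put together after values were seen, fell, with a median log2 fold change of -0.80. Over all tested genes 28.1% were called lower, and the group was not tested as a set. IL10RB, the chain shared by receptors of IL10, IL22 and interferon lambda, was at 21.1, 20.2 and 22.5 CPM in PC9 and 14.5, 13.5 and 13.6 CPM in PSPC9. This is a log2 fold change of -0.62 (SE 0.063, adjusted p = 6.89e-06). IL20RA and IL20RB pair to bind IL19, IL20 and IL24. IL20RA was at 7.67, 7.84 and 7.25 CPM in PC9 and 3.70, 3.62 and 4.24 CPM in PSPC9. Its log2 fold change was -0.97 (SE 0.10, adjusted p = 6.20e-06). IL20RB was at 2.67, 3.00 and 2.91 CPM in PC9 and 0.993, 1.11 and 1.08 CPM in PSPC9. It fell like its partner, and the log2 fold change was -1.42 (SE 0.15, adjusted p = 1.08e-05). NCK1 shares 66 exon bases with IL20RB on the same strand and had a log2 fold change of -0.41. IL22RA1, the epithelial chain for IL22, was at 7.85, 8.34 and 7.93 CPM in PC9 and 5.17, 5.81 and 6.20 CPM in PSPC9. In log2 terms the change came to -0.48 (SE 0.092, adjusted p = 0.000741). The groups of these 4 receptors did not overlap. The same held for members that were not called, among them CCL28, IL15 and IL23A. The share of such genes among all tested genes was not counted.

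Of the receptors of the IL17 family, only IL17RE was called. IL17RE, which pairs with IL17RA to bind IL17C, was at 9.56, 10.5 and 9.53 CPM in PC9 and 6.47, 8.01 and 6.53 CPM in PSPC9. It fell, and the log2 fold change was -0.49 (SE 0.10, adjusted p = 0.00100). IL17RA, the chain that the family shares, was at 17.5, 19.7 and 18.3 CPM in PC9 and 18.4, 18.5 and 18.2 CPM in PSPC9. Its log2 fold change of -0.0092 had a 95% interval of -0.14 to 0.12. IL17RC, its partner for IL17A and IL17F, was at 25.2, 31.6 and 30.2 CPM in PC9 and 25.1, 25.2 and 30.0 CPM in PSPC9 and was not called, at -0.11 (95% interval -0.32 to 0.093). IL17RD, also known as SEF, an inhibitor of growth factor signalling, was at 14.4, 11.6 and 12.7 CPM in PC9 and 12.6, 11.1 and 11.4 CPM in PSPC9. It was not called, at -0.15 (95% interval -0.35 to 0.056). The ligand IL17D was higher in every PSPC9 library, but at 0.89 (95% interval 0.29 to 1.5) and an adjusted p of 0.0134 it was not called.

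IL23A, IL12A and IL12RB1 were not called. IL23A, the private subunit of IL23, was at 3.05, 2.67 and 2.73 CPM in PC9 and 3.73, 4.0 and 3.48 CPM in PSPC9. Its groups did not overlap, yet at 0.41 (95% interval 0.14 to 0.67) its adjusted p of 0.0116 missed the limit. IL12A, the private subunit of IL12, was at 1.02, 1.26 and 0.950 CPM in PC9 and 1.34, 1.21 and 1.43 CPM in PSPC9. Its groups overlapped, and its log2 fold change was 0.30 (95% interval -0.13 to 0.74). IL12RB1, a receptor chain for both cytokines, had a log2 fold change of 0.59 (95% interval -0.071 to 1.24), and its gene body overlaps that of MAST3 with 0 exon bases in common.

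One tested pseudogene, IL9RP3, fell by 1.80 on the log2 scale (SE 0.35, adjusted p = 0.000809), at 0.581, 0.529 and 0.683 CPM in PC9 and 0.171, 0.222 and 0.117 CPM in PSPC9. It is a near-identical copy of IL9R, so the source of these reads is uncertain. IL9R itself had 6, 9 and 12 counts in PC9 and 2 in each PSPC9 library and was not tested.

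The other 101 members were not tested, and 42 of them had no count in any library, 29 of these ligands and 8 receptors. Only 8 untested members reached 10 counts anywhere. CCL5, a T cell and monocyte chemokine, had 5, 0 and 4 counts in PC9 and 20, 14 and 10 in PSPC9. CXCL10, an interferon-induced chemokine (singled out after its values were seen), had 0 counts in PC9 and 2, 2 and 7 in PSPC9, 11 in all. Setting PC9 to 3 counts over the group gives a ratio of 3.95, which leaves out the counting error of the PSPC9 counts. IL7R, the IL7-binding chain, had 12, 4 and 6 counts in PC9 and 3, 2 and 1 in PSPC9. IL16 had 7, 6 and 14 counts in PC9 and 3, 4 and 7 in PSPC9. CCL27, CXCL3 and IL4I1 had overlapping groups, with sums of 24, 19 and 21 counts in PC9 and 26, 22 and 25 in PSPC9. None of these counts was large enough to enter the test.

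Transcript counts were tested in the same way. Of 54499 tested transcripts, 3.89% were called higher and 3.91% lower. Of 118 tested transcripts of 50 members, 10 were higher and 5 lower, in 11 genes, and all 15 went in the direction of their gene. Leaving out any 1 library gave 4 to 7 higher and 0 to 2 lower, at fewer samples per fit. The fewest were higher without PC9 replicate 3, and none was lower without PSPC9 replicate 3. At an unadjusted p under 0.05 in edgeR, these fits held 12 to 17 higher and 15 to 21 lower, beside 14 and 17 with all libraries. DESeq2 called 15 lower. With the replicate number as a block, edgeR called 2 higher and 0 lower, beside 12 and 15 at an unadjusted p under 0.05. CXCL16-201, a protein-coding transcript that carried 68.2% ± 2.92 of CXCL16 counts in PC9 and 64.5% ± 5.16 in PSPC9, was at 56.2, 67.6 and 62.7 CPM in PC9 and 176, 165 and 174 CPM in PSPC9. ACKR3-201, which carried 76.5% ± 2.84 of ACKR3 counts in PC9, was at 14.7, 16.0 and 14.5 CPM in PC9 and 70.1, 69.2 and 70.2 CPM in PSPC9. Both are the main coding forms of their genes.

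Most IL6ST counts were assigned to IL6ST-213, at 85.7% ± 2.90 in PC9 and 82.6% ± 3.00 in PSPC9. It is annotated as a target of nonsense-mediated decay, and it rose by 0.60 on the log2 scale. IL11-201, the main coding form of IL11, carried 57.0% ± 8.42 of IL11 counts in PC9 and 79.6% ± 9.78 in PSPC9. IL2RG-202 had 0 counts in all 3 PC9 libraries and 45, 54 and 42 in PSPC9. The few PC9 counts of IL2RG therefore fell on other transcripts. IL21R-202 had 24, 39 and 35 counts in PC9 and 1, 0 and 0 in PSPC9. Kallisto divides reads among overlapping transcripts, and the uncertainty of that division enters none of these tests.

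Genes of the same pathways outside the symbol rule were counted in 5 lists. Over all 14626 tested genes, 28.7% were called higher and 28.1% lower, and no list was tested as a set. From each list up to 4 genes per direction were named by smallest p, and STAT6, CASP1, LIFR, LIF, OSMR and CSF1 were added after their values were seen. Of 25 JAK-STAT genes, 9 rose and 11 fell, with a median log2 fold change of -0.067. JAK1, the kinase of gp130 and most interleukin receptors, rose by 0.77 on the log2 scale, the phosphatase gene PTPN11 by 0.63, SOCS2 by 0.65 and STAT3 by 0.41. Beside SOCS3 and JAK3, the interferon signalling gene STAT2 fell by 0.90 and PTPN6, which encodes the phosphatase SHP1, by 0.70 on the log2 scale. STAT3, which gp130 activates, rose as IL6ST did, and STAT6, which IL4R activates, fell as IL4R did. RNA levels do not show STAT activation, and a link between the levels of receptor and STAT was not tested.

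Of 18 tested genes of IL1 and IL17 receptor signalling, 3 rose (16.7%) and 10 fell (55.6%), with a median log2 fold change of -0.24. IRAK1, TRAF6 and MYD88, which link the receptors to NF-kappa B, rose by 0.60, 0.40 and 0.37 on the log2 scale. SIGIRR, an inhibitory receptor of the family, fell by 0.61 on the log2 scale, PELI2 by 0.57, TRAF3IP2, the adaptor of IL17 receptors, by 0.46 and PELI1 by 0.45. CASP1, the protease that matures IL1B and IL18, also fell, by 0.62.

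Of 18 tested genes of chemokine receptor signalling, 8 rose (44.4%) and 1 fell (5.56%), with a median log2 fold change of 0.22. DOCK2, a leukocyte activator of Rac, was at 0.0581, 0.0588 and 0.238 CPM in PC9 and 1.75, 1.68 and 1.49 CPM in PSPC9 and rose by 3.76 on the log2 scale. GRK3, a kinase that phosphorylates active receptors, was at 1.05, 1.35 and 1.22 CPM in PC9 and 7.64, 7.12 and 7.35 CPM in PSPC9 and rose by 2.61 on the log2 scale. GNAI1, a G protein subunit, rose by 0.76 on the log2 scale and ELMO2, a partner of DOCK proteins, by 0.68. ARRB2, an arrestin, fell by 0.36 on the log2 scale. DOCK2 is known as a leukocyte gene, the summed leukocyte markers moved the same way as given above, and their part in its rise was not tested.

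Of 10 tested chemokine-like genes outside the rule, 3 rose and 3 fell (30.0% each, near the shares over all genes), with a median log2 fold change of -0.047. MIF, an atypical chemokine that binds CD74, fell by 0.39 on the log2 scale and CD74 rose by 0.87, at 64.2, 67.6 and 62.3 CPM in PC9 and 111, 127 and 117 CPM in PSPC9. XCR1, the receptor of XCL1, rose by 1.26 on the log2 scale and CMTM6 by 0.15. CMTM7 and CMTM8 fell by 0.58 and 0.48 on the log2 scale. Of 10 IL6-type and colony-stimulating factor genes, 5 rose and 2 fell, with a median log2 fold change of 0.25. Beyond those named, CSF2RB, the chain shared by IL3, IL5 and GM-CSF receptors, was at 0.145, 0.411 and 0.238 CPM in PC9 and 1.92, 1.72 and 2.25 CPM in PSPC9 and rose by 2.88 on the log2 scale. CSF2RA, which binds GM-CSF, rose by 0.38 on the log2 scale.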

How the data were processed

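Bulk poly-A RNA-seq of 3 PC9 and 3 PSPC9 libraries was used, with groups and replicate numbers from the sample labels and culture details from the study's methods. The authors trimmed the paired-end 75-base reads with bases2fastq, filtered them with FASTP and pseudoaligned them with kallisto 0.46.1 to Ensembl release 96 transcripts. They deposited estimated counts as whole numbers per gene symbol and per transcript, without normalization. Sleuth, with which they tested these libraries together with those of another laboratory, was not used here, and those libraries were not analysed here.

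Counts were fitted in R 4.3.3 with edgeR 4.0.16 (filterByExpr, TMM, glmQLFit, glmQLFTest, no block) over all genes, and adjusted p-values (Benjamini-Hochberg) were called under 0.01. The SE is the size of the log2 fold change divided by the square root of F, and the 95% intervals use the t distribution. Exact counting intervals come from a conditional binomial test and, like limits for counts of 0 (set at 3 counts), cover counting error only. An exact permutation test of 3 against 3 libraries cannot go below p = 0.1. TPM were computed from the deposited transcript counts and GENCODE 44 lengths, which matched 167067 of 188753 transcripts and 95.8% of their counts. Of the members, 153 were matched to GENCODE 44, whose GRCh38 coordinates are given. Upstream sequences are from RefSeq. The main edgeR fits of genes and transcripts were run before use on data simulated with 200 known changes each. They recovered 90.5% and 66.0% of these changes, and 1.09% and 2.22% of their calls were wrong. The simulated data had far fewer changes than were called here, and the same variability beyond counting error for every gene or transcript. They held no error from dividing reads among transcripts, so these rates may not hold for the data here. The alternative fits were not tested in this way.

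CPM per library are given for members with a mean of at least 1 CPM or called with a fold change above 2, and untested members are named where any library had at least 10 counts. Members and lists were chosen with earlier results of these data known. Alternatives were other normalizations, filters and limits, DESeq2 1.42.0, voom in limma 3.58.1, summing transcripts to genes, a block for the replicate number, and each library left out in turn. Precision is set by the spread between replicates and, below about 1 CPM, by counting error. Figures were drawn with matplotlib 3.10.9.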

Additional observations from a re-analysis of the deposited data

How the results depend on the processing

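Of 30 called members, 25 could be tested in all 15 alternatives, and 24 of these kept their call and direction throughout. CCR1, CXCL17, IL1RL1, IL34 and IL9RP3 could not be tested with a minimum of 1 CPM in 3 libraries, and CXCL17, IL34 and IL9RP3 kept their call in the others. CCR1, IL1RL1 and IL36RN lost it in some, and 0 reversed. Of 23 uncalled members, 6 became called somewhere (CCL22, IL17D, IL1RAP, IL1RAPL2, IL1RL2 and IL23A). Leaving out 1 library at a time reversed the sign of 4 uncalled members, which ranged from -0.083 to 0.40 (CXCL1), -0.15 to 0.025 (IL11RA), -0.047 to 0.038 (IL17RA) and -0.13 to 0.069 (IL1A). Further values past 0 were 0.014 for IL11RA and 0.021, 0.050 and 0.066 for IL1A. At an adjusted p under 0.05, 7 ligands were higher and 15 member transcripts lower. With a fold change above 2 added, 3 receptors were higher and 6 lower, 7 genes of the other lists higher and 3 lower, and 3 member transcripts lower. Of member transcripts, 15 were lower by DESeq2 and 3 lower without a filter on expression. Leaving out 1 library gave 4 to 7 higher and 0 to 2 lower member transcripts, at fewer samples per fit. Where edgeR called 0 lower, without PSPC9 replicate 3, 21 were lower at an unadjusted p under 0.05.

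Replicate numbers are not stated to mark shared cultures, and deviations from the group means correlated at 0.124, 0.0236 and 0.0215 for numbers 1, 2 and 3. A replicate block moved the calls over all genes from 4193 to 4382 higher and from 4114 to 4289 lower, left 2 member transcripts higher and 0 lower (by edgeR, with 15 lower at an unadjusted p under 0.05, and 15 lower by DESeq2 without the block), and among member genes changed only the call of IL1RAP (log2 fold change 0.20, adjusted p = 0.00837). No scaling moved the median of all genes by more than 0.053 on the log2 scale. With 1 length per gene, 56 of 76 mean TPM values moved by more than 1 SD, IL13RA1 to 251 TPM in PC9. Genes at a few counts, among them IL34 and CXCL17 in their low condition, are limited by depth.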
